A study of Sus scrofa with 20 samples.

Results

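Conjugating enzymes attach a sulfate, a glutathione or a glucuronic acid to hormones, bile acids, drugs and products of lipid peroxidation. They were taken here as the genes of the RNA-seq count table whose pig Ensembl symbol starts with UGT1, UGT2 or UGT3, with SULT or MGST and a number, or with GST, a class letter (A, K, M, O, P, T or Z) and a number. The rule found 20 of the 31907 genes in the table: 10 cytosolic sulfotransferases (SULT), 6 cytosolic glutathione transferases (GSTA4, GSTM3, GSTO1, GSTO2, GSTT4 and GSTZ1), the kappa class enzyme GSTK1, and the 3 microsomal glutathione transferases MGST1, MGST2 and MGST3. A symbol was held for 15029 genes, and 0 of these symbols start with UGT1, UGT2 or UGT3, so the UDP-glucuronosyltransferases named in the first part of the rule are not analysed here.

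Backfat and liver of 5 Nanchukmacdon boars were compared by mRNA sequencing, with 5 libraries per tissue. The labels describe all animals as WT, with disease state Normal and an age of 22 months, and no treatment is named for either tissue. Columns of the count table carry a tissue and an animal number (65, 67, 69, 71 or 72), and libraries are named here by both. Between 43820042 and 61772737 read pairs per library were counted in genes. For genes with many counts, p-values measure mainly the spread between these 10 libraries. For members with few counts the counting error adds to it. All samples are pieces of whole tissue, in which fewer cells of a type and less RNA per cell cannot be told apart.

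Sulfotransferases move a sulfate group from the donor PAPS to a hydroxyl or amino group, which makes steroids, thyroid hormones, catecholamines and phenols more soluble and usually inactive. Glutathione transferases join the tripeptide glutathione to reactive carbon compounds, and some of them also reduce peroxides or isomerize metabolites. Microsomal members sit in membranes and belong to another protein family than the cytosolic ones, and the liver is known as the main site of both reactions.

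The tissue labels were checked with marker genes, summed as CPM (counts scaled to a common library total). The 6 hepatocyte markers (ALB, APOA1, TTR, FGB, TF and SERPINC1) added up to between 18850 and 81586 CPM in liver and between 202 and 700 CPM in backfat, where none of them was at 0. The 6 adipocyte markers (ADIPOQ, PLIN1, FABP4, CIDEC, LIPE and LEP) reached 11053 to 17653 CPM in backfat and 9.62 to 11.3 CPM in liver, with up to 2 of them at 0 in a liver library. Liver 67 stood apart: it had the lowest hepatocyte sum, the highest liver sum of 3 red cell markers (1273 CPM) and of 2 skeletal muscle markers (97.4 CPM), and 44.5% of its counts in 13 mitochondrial genes against 6.38% to 20.2% in the other 9 libraries. Values without it are given beside the members and shares where it was the lowest or highest liver library by far, and its part in them beyond that was not tested.

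Levels below are CPM after TMM normalization, a scaling that assumes that most genes do not differ between libraries. Its factors were 1.18 to 1.44 in backfat and 0.649 to 0.916 in liver. Whether the assumption holds between these tissues was not tested. Levels of different genes were compared only as CPM per kb of exon. Fold changes are log2 values of backfat over liver, so a negative value is higher in liver. Differentially expressed genes (DEGs) had FDR ≤ 0.05 and an absolute log2 fold change ≥ 2 in the quasi-likelihood test of edgeR, with p-values of 16275 genes adjusted together (Benjamini-Hochberg). The 18 members with enough counts were tested. Of these, 10 were DEGs higher in liver, where 11.2% of all tested genes were, and 2 were DEGs higher in backfat, where 11.1% of all tested genes were (22.3% in either direction). Scaling by library size only, without TMM, moved the median of all tested genes by 0.71 towards backfat. It left 5 DEGs towards liver and 3 towards backfat among the members. GSTZ1, GSTM3, GSTK1, MGST2 and SULT1C2 then missed the fold threshold, and MGST3 passed it. Of all 16275 tested genes 1340 were then DEGs towards liver and 2874 towards backfat, against 1819 and 1814 with TMM. FDR alone was passed by 12 members towards liver (27.0% of all tested genes) and by 3 towards backfat (28.0%), and 55.0% of all tested genes passed it in either direction. With library size only these counts were 11 and 4, since SULT1C3 then missed the FDR and GSTO2 passed it. The median log2 fold change was -2.18 over the 18 members and 0.0001 over all tested genes. In 10 members every liver library lay above every backfat library (19.7% of all tested genes), and in 3 members the order was the opposite (22.9%). Over all tested genes 42.6% had ranges that did not overlap, in either direction.

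**Figure D1:**
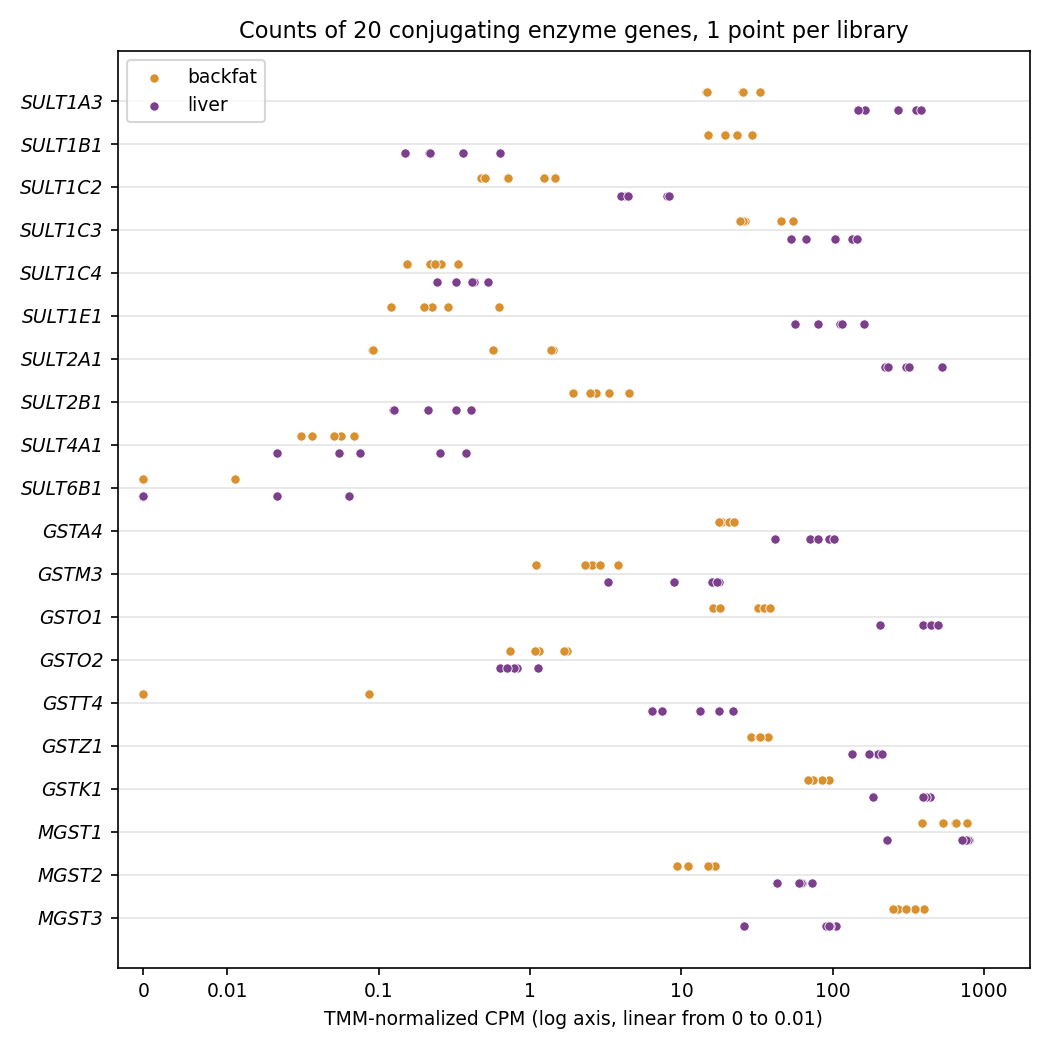
TMM-normalized CPM of the 20 members in each of the 10 libraries, with 1 point per library and a log axis that is linear below 0.01. SULT1B1 and SULT2B1 lie between 1.91 and 29.3 CPM in backfat and below 0.64 CPM in liver, while SULT2A1, SULT1E1 and GSTT4 are at most at 1.42 CPM in backfat and at least at 6.36 CPM in liver.

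**Figure D2:**
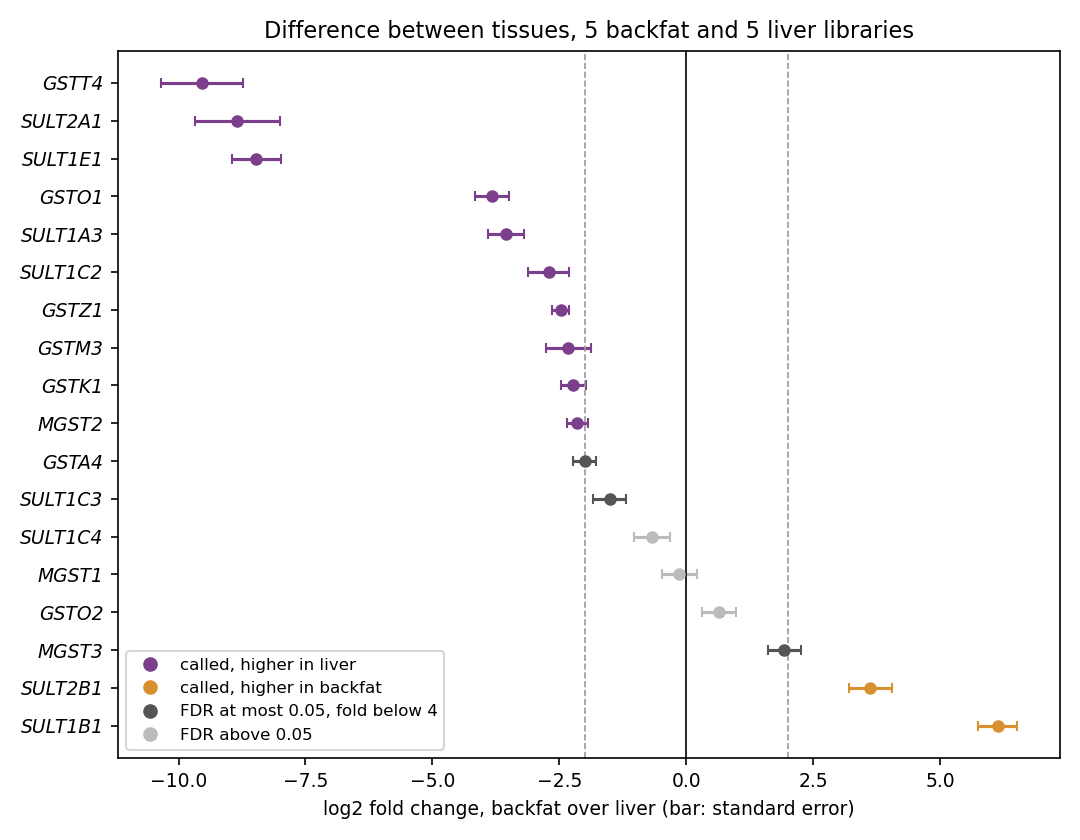
Log2 fold change of backfat over liver for the 18 tested members, with the standard error as a bar and dashed lines at the threshold of 2. The values run from -9.53 for GSTT4 to 6.14 for SULT1B1, and 3 members (grey) did not pass the FDR.

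Among the sulfotransferases, 4 of the 8 tested members were DEGs higher in liver and 2 were DEGs higher in backfat. The family held both the largest difference towards backfat and, apart from GSTT4, the largest differences towards liver of all members. SULT2A1 (ENSSSCG00000033207), the sulfotransferase of dehydroepiandrosterone and bile acids, was counted in liver at 220, 530, 232, 303 and 318 CPM in boars 65, 67, 69, 71 and 72. The backfat values in the same order were 0.0902, 0.0915, 0.572, 1.42 and 1.37 CPM. All liver libraries were far above every backfat library, and the backfat values were low in boars 65 and 67 and higher in the other 3 boars. The log2 fold change was -8.84 (SE 0.84, FDR = 2.21e-06, edgeR), it was -8.62 without liver 67, and limma-voom gave -9.66. The backfat libraries with the most SULT2A1, from boars 71 and 72, had the lowest hepatocyte marker sums of that tissue (216 and 202 CPM), and the highest sum was that of backfat 69 (700 CPM). The source of the SULT2A1 counts in backfat was not tested.

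SULT1E1 (ENSSSCG00000039341), the estrogen sulfotransferase, was found at 56.1, 111, 80.3, 160 and 115 CPM in liver. In backfat it was at 0.226, 0.626, 0.286, 0.198 and 0.120 CPM. The groups did not overlap, and the lowest liver library was far above the highest backfat library. Its log2 fold change was -8.47 (SE 0.48, FDR = 3.51e-08, edgeR).

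SULT1B1 (ENSSSCG00000032374), which acts on thyroid hormones and small phenols, had the opposite pattern. Its levels were 23.1, 15.0, 29.3, 23.4 and 19.4 CPM in backfat. In liver they were 0.150, 0.216, 0.361, 0.632 and 0.217 CPM, which rest on 6 to 20 counts per library. Every backfat library lay above every liver library, and the log2 fold change of 6.14 (SE 0.38, FDR = 6.2e-08, edgeR) was the largest towards backfat among the members.

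SULT2B1 (ENSSSCG00000023280), the sulfotransferase of cholesterol and related sterols, was the other DEG higher in backfat. It was expressed at 2.72, 1.91, 4.49, 3.32 and 2.49 CPM in backfat, and at 0.125, 0.324, 0.212, 0.126 and 0.407 CPM in liver, where 4 to 15 counts per library were found. The groups did not overlap in this gene either, although its backfat level was low beside that of SULT1B1 (2.58 against 7.97 CPM per kb). The log2 fold change was 3.63 (SE 0.42, FDR = 1.36e-05, edgeR).

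Both sulfotransferase genes higher in backfat lie on the same chromosome as 1 higher in liver, in the RefSeq annotation of Sscrofa11.1, which is the build of the count table. SULT2A1 (chr6:53525496-53536723, minus strand) and SULT2B1 (chr6:53928248-53963443, plus strand) are separated by 391.5 kb, with 22 annotated genes between them. SULT1B1 (chr8:66727047-66748761, minus strand) and SULT1E1 (chr8:66811536-66838181, minus strand) are separated by 62.8 kb, with 1 annotated gene between them. The members of each pair were DEGs in opposite directions, so the 250 bases before the annotated start of each of the 4 genes are shown, read 5′ to 3′ on the strand of the gene. Capitals mark matches, on either strand, to 4 motifs: a TATA box, the HNF4 core, and the cores of the antioxidant and the xenobiotic response element.
SULT2A1 (chr6:53536724-53536973, minus strand): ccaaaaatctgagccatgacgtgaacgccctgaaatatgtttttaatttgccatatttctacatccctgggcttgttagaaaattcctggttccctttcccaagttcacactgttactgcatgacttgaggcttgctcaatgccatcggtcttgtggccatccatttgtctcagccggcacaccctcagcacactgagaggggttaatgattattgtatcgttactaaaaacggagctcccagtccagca
SULT2B1 (chr6:53927998-53928247, plus strand): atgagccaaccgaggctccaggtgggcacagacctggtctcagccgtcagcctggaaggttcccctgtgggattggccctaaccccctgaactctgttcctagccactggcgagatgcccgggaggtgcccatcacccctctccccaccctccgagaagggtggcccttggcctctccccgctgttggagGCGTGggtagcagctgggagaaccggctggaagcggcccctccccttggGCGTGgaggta
SULT1E1 (chr8:66838182-66838431, minus strand): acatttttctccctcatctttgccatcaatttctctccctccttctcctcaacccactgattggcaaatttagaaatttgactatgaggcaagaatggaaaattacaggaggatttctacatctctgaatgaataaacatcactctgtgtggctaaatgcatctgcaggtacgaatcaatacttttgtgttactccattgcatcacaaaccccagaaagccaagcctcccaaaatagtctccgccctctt
SULT1B1 (chr8:66748762-66749011, minus strand): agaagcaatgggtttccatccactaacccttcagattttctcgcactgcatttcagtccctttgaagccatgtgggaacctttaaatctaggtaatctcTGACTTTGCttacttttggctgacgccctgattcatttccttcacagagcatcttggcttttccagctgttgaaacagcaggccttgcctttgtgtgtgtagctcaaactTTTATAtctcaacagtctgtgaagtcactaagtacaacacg

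The upstream windows of these 4 genes shared no motif match. SULT2B1 held the xenobiotic response element core GCGTG 60 and 11 bases before the start, a motif present in 32.2% of the 19556 upstream windows of the same length in the annotation. SULT1B1 held a TATA box (TATAAA) on the opposite strand 41 bases before the start (9.77% of all windows) and an antioxidant response element core (TGACNNNGC) at 151 bases (9.97%). No match was found in SULT2A1 or SULT1E1, and no member window held the HNF4 core CAAAGTCCA (0.317% of all windows). SULT1E1, SULT1B1, SULT2A1 and SULT2B1 had 2, 3, 6 and 10 CpG dinucleotides in these windows, against a median of 12 over all windows.

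SULT1A3 (ENSSSCG00000021557), by its symbol a phenol sulfotransferase of the SULT1A group, was the sulfotransferase with the highest mean level per kb in both tissues (18.8 ± 6.60 CPM per kb in backfat and 218 ± 88.4 in liver, SD, n = 5). In liver it was at 354, 163, 380, 270 and 147 CPM. The backfat values were 14.4, 25.2, 25.3, 14.8 and 33.1 CPM. All liver libraries were above all backfat libraries, with a log2 fold change of -3.54 (SE 0.35, FDR = 3.47e-06, edgeR).

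Of the 3 SULT1C genes 1 was a DEG. SULT1C2 was low in both tissues, at 4.24, 3.97, 4.42, 7.99 and 8.27 CPM in liver and at 1.45, 0.717, 0.471, 0.505 and 1.24 CPM in backfat. The groups did not overlap, and its log2 fold change was -2.71 (SE 0.40, FDR = 9.96e-05, edgeR). SULT1C3 was at 133, 52.9, 143, 66.4 and 104 CPM in liver and at 45.5, 26.2, 54.4, 25.5 and 24.5 CPM in backfat. It passed the FDR at a fold below the threshold (log2 fold change -1.50, FDR = 0.00176, edgeR), and its highest backfat library lay just above its lowest liver library, which was liver 67. Without liver 67 the log2 fold change was -1.70 and the ranges did not overlap. With scaling by library size only SULT1C3 missed the FDR (-0.84, FDR = 0.0638). SULT1C4, at 0.154 to 0.336 CPM in backfat and 0.243 to 0.524 CPM in liver, did not pass the test (log2 fold change -0.67, FDR = 0.131, edgeR). RefSeq positions were not matched for these 3 genes. Read pairs that map to several places were left out of the counts, which can lower the level of genes with near copies, such as those of the SULT1C, GSTA and GSTM groups, and the size of this was not tested.

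The remaining 2 sulfotransferases had too few counts to be tested. SULT4A1, known from brain, had 2 to 5 counts per backfat library and 1 to 14 per liver library. SULT6B1 had 1 count over the 5 backfat libraries and 3 counts over the 5 liver libraries in all. A difference between tissues was not detectable for them at this depth.

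In the cytosolic glutathione transferases, 4 of 6 members were DEGs higher in liver and 0 were higher in backfat at the FDR (edgeR, also 0 at an unadjusted p under 0.05, and 0 with DESeq2 and limma-voom). GSTO1 (ENSSSCG00000022351), an omega class enzyme that reduces dehydroascorbate and methylated arsenic, had the highest mean level per kb of all members in liver (356 ± 102 CPM per kb, SD, n = 5). It was at 445, 204, 392, 443 and 494 CPM in liver and at 16.2, 17.9, 31.9, 35.1 and 38.2 CPM in backfat. The groups were well apart, and liver 67 was the lowest liver library. The log2 fold change was -3.83 (SE 0.34, FDR = 1.19e-06, edgeR) with liver 67 and -4.03 without it.

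GSTO2, its paralog, lies 1.55 kb downstream on the same strand of chromosome 14, where GSTO1 is at chr14:115206434-115216624 and GSTO2 at chr14:115218179-115242377. No other annotated gene lies between them. GSTO2 was low in both tissues, at 1.14, 1.75, 0.740, 1.08 and 1.66 CPM in backfat and at 0.823, 1.13, 0.786, 0.632 and 0.705 CPM in liver. It did not pass the test (log2 fold change 0.64, SE 0.33, FDR = 0.119, edgeR), although it passed the FDR towards backfat with scaling by library size only (1.36, FDR = 0.00524). Its ranges in the tissues overlapped, unlike those of its neighbour. The windows of 250 bases before these genes held 19 and 21 CpG dinucleotides, both above the median of all windows.

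GSTT4 (ENSSSCG00000010065), a theta class transferase, had the largest log2 fold change of the members (-9.53, SE 0.81, FDR = 8.56e-07, edgeR). It was at 6.36, 13.3, 7.39, 21.8 and 17.8 CPM in liver. In backfat 4 libraries had 0 counts, and backfat 72 had 5 counts (0.0858 CPM). The size of this difference therefore rests on 1 backfat library. With all 5 backfat libraries the fitted difference was 741-fold. For the 4 backfat libraries with 0 counts alone, an assumed floor of 3 counts in all gives a bound of 1197-fold higher in liver. This bound leaves out the only backfat library with counts, so it is not a lower limit for the tissue.

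GSTZ1, the maleylacetoacetate isomerase of tyrosine breakdown, had the smallest standard error of all members. It was at 28.6, 32.3, 33.5, 37.0 and 33.3 CPM in backfat and at 196, 134, 198, 212 and 174 CPM in liver, and the log2 fold change was -2.47 (SE 0.17, FDR = 1.55e-07, edgeR). GSTM3, a mu class transferase, was at 2.56, 1.10, 2.29, 2.90 and 3.79 CPM in backfat and at 17.8, 3.27, 8.98, 15.8 and 17.3 CPM in liver. Its ranges overlapped, since liver 67 lay below backfat 72, while the log2 fold change was -2.32 (SE 0.45, FDR = 0.000785, edgeR) with liver 67 and -2.60 without it.

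GSTA4, which clears the lipid peroxidation product hydroxynonenal, lay at the fold threshold. It was at 17.9, 18.6, 17.6, 20.7 and 22.2 CPM in backfat and at 93.7, 41.2, 102, 71.0 and 79.7 CPM in liver, with no overlap. The log2 fold change of -1.9985 (SE 0.22, FDR = 9.1e-06, edgeR) missed the threshold, and it passed without liver 67 (-2.19). GSTK1, the kappa class enzyme of mitochondria and peroxisomes, was at 72.4, 93.9, 84.4, 74.4 and 68.3 CPM in backfat and at 440, 185, 401, 414 and 394 CPM in liver. Liver 67 was far below the other 4 liver libraries and still above all backfat libraries, and the log2 fold change was -2.22 (SE 0.25, FDR = 9.03e-06, edgeR) with liver 67 and -2.42 without it.

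The microsomal glutathione transferases went 3 ways. MGST2, which can make leukotriene C from its precursor, was a DEG higher in liver. MGST3, which has glutathione peroxidase activity, passed the FDR towards backfat at a fold just below the threshold. MGST1, found in the outer mitochondrial membrane and the endoplasmic reticulum, did not pass the test.

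MGST3 (ENSSSCG00000006325; chr4:85069603-85095022, minus strand) had the highest mean level per kb of all members in backfat (351 ± 66.2 CPM per kb, SD, n = 5, against 91.7 ± 35.7 in liver). It was at 270, 251, 397, 348 and 305 CPM in backfat. In liver it was at 105, 25.9, 96.0, 89.7 and 94.2 CPM. Every backfat library was above every liver library, and liver 67 was far below the other 4 liver libraries. The log2 fold change was 1.93 (SE 0.33, FDR = 0.000301, edgeR). It was 1.67 without liver 67, and it passed the threshold with the boar as a block (2.06, FDR = 0.000413, edgeR).

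MGST1 (ENSSSCG00000032580; chr5:56259566-56283823, minus strand) had mean levels of 194 ± 47.0 CPM per kb in backfat and 213 ± 78.5 CPM per kb in liver (SD, n = 5). In single libraries it was at 388, 641, 533, 650 and 773 CPM in backfat and at 796, 226, 782, 754 and 717 CPM in liver. Backfat and liver overlapped, and liver 67 was again far below the other liver libraries. The log2 fold change was -0.13 (SE 0.34, FDR = 0.758, edgeR), and -0.38 (FDR = 0.198) without liver 67. MGST2 was at 9.28, 11.1, 15.6, 16.8 and 15.0 CPM in backfat and at 62.4, 42.7, 61.2, 72.7 and 59.8 CPM in liver, without overlap (log2 fold change -2.14, SE 0.21, FDR = 2.45e-06, edgeR).

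Levels per kb showed how the pool of conjugating enzyme transcripts was made up in each tissue. MGST3 and MGST1 supplied 53.6% ± 5.76 and 29.6% ± 5.69 (SD, n = 5) of the summed level of all 20 members in backfat, and MGST3 ranked first in each of the 5 libraries. In liver the sum was spread more widely: GSTO1 supplied 25.6% ± 4.12, SULT1A3 15.8% ± 4.92, MGST1 15.0% ± 3.92, SULT2A1 15.0% ± 10.3 and GSTK1 11.2% ± 1.50. GSTO1 ranked first in 4 liver libraries, and in liver 67 SULT2A1 ranked first with 33.1%. Without liver 67 (n = 4) the order changed: GSTO1 supplied 27.0% ± 3.10, MGST1 16.7% ± 0.448, SULT1A3 16.1% ± 5.64, GSTK1 11.9% ± 0.321 and SULT2A1 10.4% ± 2.14. Shares within a library do not depend on the scaling between libraries. Ranks, shares and sums per kb do depend on the annotated exon length, which ran from 810 bases for GSTM3 to 6671 for GSTA4. It was 896 bases for MGST3 and 3078 for MGST1. Without division by length MGST1 was above MGST3 in every backfat library (mean 597 against 314 CPM). Whether these lengths match the transcripts present in the tissues was not tested.

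**Figure D3:**
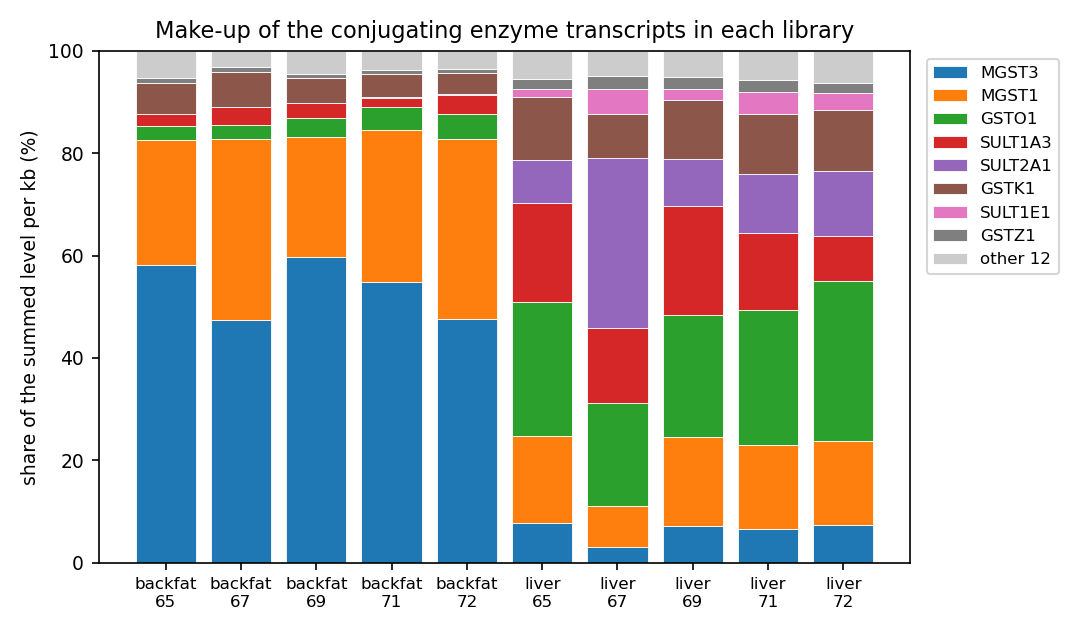
Share of each member in the summed level per kb of exon of all 20 members, in percent, with 1 bar per library and the 12 members of lower share joined in grey. MGST3 and MGST1 make up most of each backfat bar, and GSTO1, SULT1A3, MGST1, SULT2A1 and GSTK1 most of each liver bar.

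Within the sulfotransferases alone, SULT1A3 supplied close shares of the summed level per kb in both tissues, 49.8% ± 12.4 in backfat and 46.1% ± 16.2 in liver (SD, n = 5). The rest differed. It came mainly from SULT1B1 (21.8% ± 5.52), SULT1C3 (18.5% ± 6.41) and SULT2B1 (7.01% ± 2.07) in backfat, and from SULT2A1 (39.7% ± 15.0) and SULT1E1 (9.33% ± 3.77) in liver. SULT2A1 exceeded SULT1A3 in liver 67 and liver 72, and SULT1A3 ranked first in the other 8 libraries. Without liver 67 the liver shares were 50.8% ± 14.2 for SULT1A3, 34.4% ± 10.5 for SULT2A1 and 9.37% ± 4.35 for SULT1E1 (n = 4). Within the microsomal family MGST3 supplied 64.1% ± 6.86 of the level in backfat and 28.7% ± 1.67 in liver, and MGST1 supplied 35.4% ± 6.85 and 67.4% ± 0.843.

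The summed level of the 10 sulfotransferases was 37.2 ± 7.31 CPM per kb in backfat and 467 ± 53.5 in liver (SD, n = 5). That of the 6 cytosolic glutathione transferases was 36.7 ± 10.6 in backfat and 429 ± 117 in liver. The microsomal family had the opposite order, with 547 ± 83.2 CPM per kb in backfat and 315 ± 116 in liver. In each of these 3 families the ranges of the tissues did not overlap. Without liver 67 the liver sums were 460 ± 58.6, 478 ± 44.005 and 367 ± 16.7 CPM per kb in the same order of families (n = 4). The order of the tissues was the same with TPM, which scales each library by the total of all its genes per length: 113 ± 16.0 and 703 ± 267 TPM for the sulfotransferases, 110 ± 18.4 and 661 ± 294 TPM for the cytosolic glutathione transferases, and 1659 ± 63.0 and 503 ± 280 TPM for the microsomal ones, for backfat and liver respectively. The sum over all 20 members was less than that of liver in backfat on the first scale (655 ± 96.3 against 1368 ± 254 CPM per kb) and close to it on the other (1986 ± 71.2 against 2112 ± 929 TPM), so no order of the tissues is given for it.

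**Figure D4:**
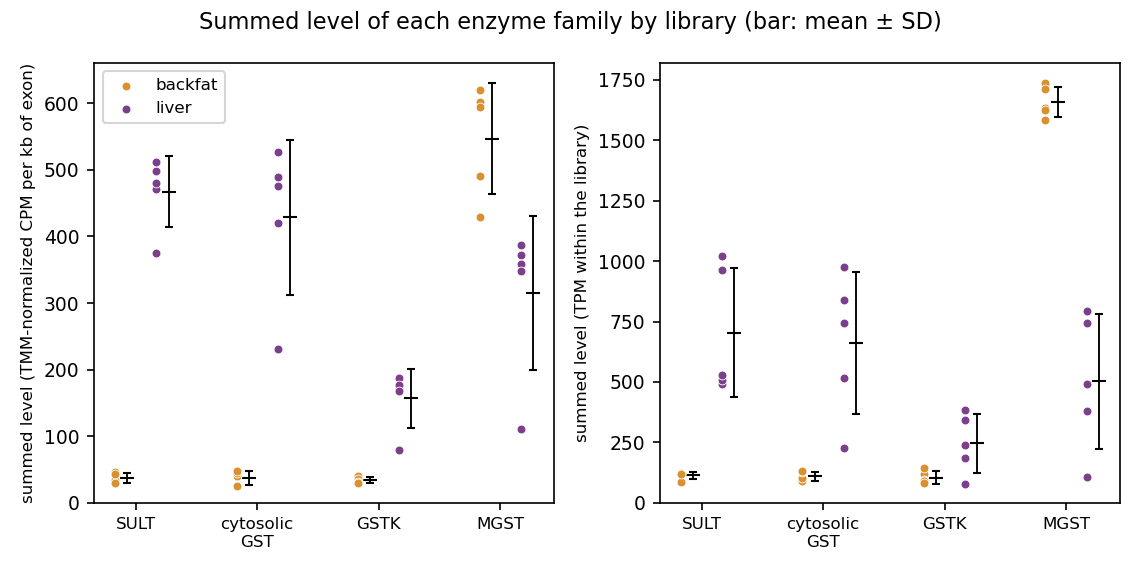
Summed level of the members of each family in each library, with mean and SD beside the points, as TMM-normalized CPM per kb of exon (left) and as TPM (right). The microsomal family (MGST) is higher in all backfat libraries than in all liver libraries on both scales, and the sulfotransferases and cytosolic glutathione transferases are higher in all liver libraries.

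Upstream sequence was compared across the 17 members with a RefSeq position, of which 14 matched by symbol and 3 (SULT1B1, GSTO2 and GSTT4) by product name. Of the 9 positioned members that were DEGs higher in liver, 5 had fewer CpG dinucleotides in the 250 bases before the start than the median of 12, namely SULT1E1 (2), MGST2 (3), SULT1A3 (4), SULT2A1 (6) and GSTT4 (6). The other 4 were above it, namely GSTM3 (18), GSTO1 (19), GSTZ1 (23) and GSTK1 (29). Both members higher in backfat were below the median. The members with low CpG counts thus included DEGs of both directions, and MGST1 and MGST3 had 12 and 13.

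The pathway around these enzymes was described with 42 genes for the supply of the conjugated groups, the processing and export of conjugates, their regulators and other conjugating enzymes. A symbol was held for 35 of them, and 33 were tested. Of these, 14 were DEGs towards liver and 0 were DEGs towards backfat (edgeR), against 11.2% and 11.1% of all tested genes. By FDR alone 22 were higher in liver and 6 in backfat (27.0% and 28.0% of all tested genes), the same numbers as at an unadjusted p under 0.05. DESeq2 and limma-voom also gave 0 DEGs towards backfat. Scaling by library size only gave 13 towards liver and 4 towards backfat, namely PAPSS1 (2.45), ABCC1 (2.06), ARNT (2.09) and HNMT (2.09). With that scaling 1340 of all 16275 tested genes were DEGs towards liver and 2874 towards backfat. The median log2 fold change of the 33 genes was -1.69 with TMM.

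Genes that supply UDP-glucuronate were higher in liver: UGDH, which makes it, was at -2.89 (FDR = 1.85e-05, edgeR), the transporter SLC35D1 at -2.98 (FDR = 0.000169), and UGP2 passed the FDR only, at -1.66. The 5 genes of sulfate donor supply had 0 DEGs with edgeR after TMM, with DESeq2 and with limma-voom. PAPSS1, 1 of the 2 synthases of the donor PAPS, passed the FDR towards backfat (26.7 ± 3.27 CPM in backfat and 7.96 ± 1.46 CPM in liver, log2 fold change 1.74, FDR = 3.23e-06, edgeR). PAPSS2, the other synthase, passed it towards liver (3.11 ± 0.333 CPM in backfat and 8.19 ± 2.75 CPM in liver, log2 fold change -1.39, FDR = 0.000668). With TMM the 2 synthases therefore differed between the tissues in opposite directions. With scaling by library size only PAPSS2 missed the FDR (-0.72, FDR = 0.0679, edgeR), and PAPSS1 was at 2.45.

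In glutathione synthesis 3 of 6 genes were DEGs, all higher in liver. GCLC, the catalytic subunit of the first step, was at -4.40 (FDR = 2.36e-06, edgeR), and CBS and CTH, which make cysteine from homocysteine, were at -4.93 and -4.14 (FDR = 1.3e-07 and 3.3e-08). GCLM, the modifier subunit, and the reductase GSR passed the FDR only, at -1.80 and -1.69, and GSS, the enzyme of the last step, did not pass it (-0.22, FDR = 0.449).

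Of the export pumps, ABCC2, the pump of the bile canaliculus, was at -8.38 (FDR = 1.1e-08, edgeR) and ABCC3 at -3.55 (FDR = 4.27e-05), while ABCC1 passed the FDR towards backfat at 1.33 (FDR = 0.000141). The peptidase ANPEP, which trims glutathione conjugates, was at -2.85 (FDR = 2.04e-05), and GUSB, which removes glucuronic acid, at -2.42 (FDR = 1.37e-06). Of 7 regulators 3 were DEGs, all higher in liver: HNF4A at -9.52 (FDR = 4.71e-08), NR1I2 (the pregnane X receptor) at -8.01 (FDR = 1.57e-09) and NR1I3 (the constitutive androstane receptor) at -4.50 (FDR = 2.02e-05). The regulators of the response to oxidative stress and aromatic compounds had smaller differences. NFE2L2 was at 0.51 and ARNT at 1.39, and KEAP1 was at -0.46 and AHR at -0.97, and each of these 4 passed the FDR below the fold threshold. With scaling by library size only AHR (-0.32, FDR = 0.501, edgeR) and KEAP1 (0.24, FDR = 0.326) missed the FDR. NFE2L2 missed it with the boar as a block (FDR = 0.0675, edgeR) and without liver 67 (0.35, FDR = 0.0722). All but ARNT also missed it in some other fits that left out 1 library.

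Other conjugating and hydrolysing enzymes included 2 DEGs, both higher in liver. NNMT, the nicotinamide methyltransferase, had the largest difference of the whole list at -11.33 (FDR = 5.24e-07, edgeR), with 0.0829 ± 0.124 CPM in backfat and 213 ± 170 CPM in liver (SD, n = 5). The backfat libraries of boars 65, 67, 69, 71 and 72 had 4, 2, 18, 2 and 0 counts of it, and the log2 fold change was -12.70 without backfat 69. In liver 67 NNMT was at 503 CPM, against 83.1 to 203 CPM in the other liver libraries. Without liver 67 its log2 fold change was -10.77. The epoxide hydrolase EPHX1 was at -4.13 (FDR = 8.23e-05, edgeR). Its liver levels varied widely, at 1014, 108, 1051, 215 and 410 CPM in the same order of boars, and without liver 67 it was at -4.42. Liver 67 was also the lowest liver library for GCLC (69.7 CPM), ABCC3 (14.0 CPM) and SLC35D1 (9.67 CPM). Without it their log2 fold changes were -4.66, -3.82 and -3.27. HNMT, which methylates histamine, passed the FDR towards backfat at 1.39 (FDR = 1.66e-05).

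**Figure D5:**
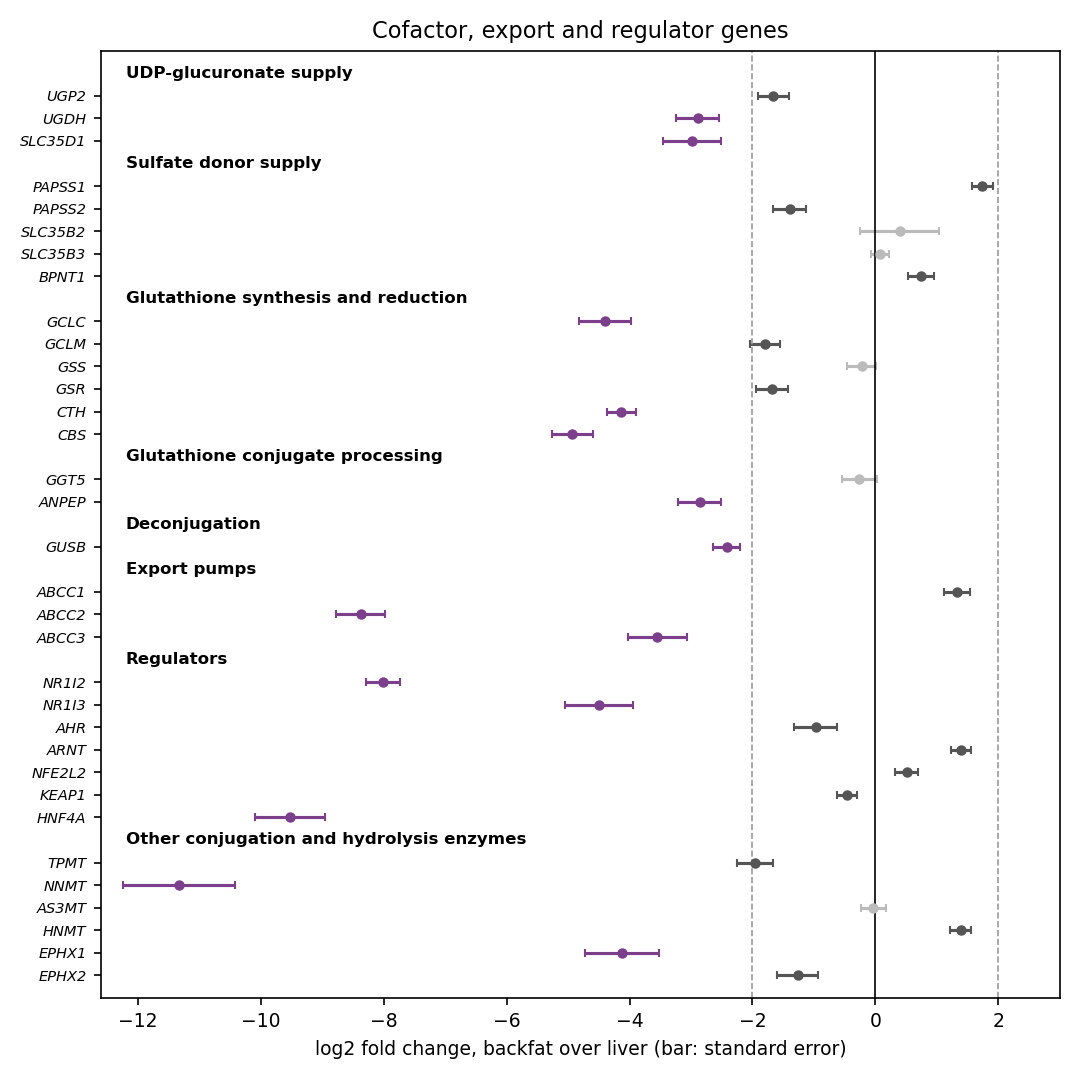
Log2 fold change of backfat over liver with its standard error for the 33 tested genes of cofactor supply, conjugate processing, export and regulation, by group, with dashed lines at the threshold of 2. With TMM the 14 DEGs (purple) are all on the side of liver, the genes in dark grey passed the FDR only, and those in light grey did not pass it.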

How the data were processed

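RNA was sequenced from backfat and liver of 5 boars. Trimmomatic, HISAT2 (build Sscrofa11.1) and featureCounts 2.0.1 were run by the authors, who counted read pairs over the exons of Ensembl release 99, per the file headers without a strand setting and without read pairs that map to several places. The deposited values are raw counts per gene. Methylation calls of the 10 WGBS libraries carry no position and were not used.

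Counts were filtered with filterByExpr, normalized by TMM and tested with edgeR 4.0.16 in R 4.3.3 (glmQLFit and glmQLFTest, tissue as the only term). DESeq2 1.42.0, limma 3.58.1 (voom), other scalings and filters, the boar as a block and leaving out each library were the alternatives. The fits were tested on simulated counts. The study used DESeq2. Labels and columns were matched by tissue, since they share no replicate number. The animal numbers of the column names served as the pairing. Deviations of the 2 libraries of a boar correlated at 0.226, 0.0945, 0.0359, 0.173 and 0.121. The best match was the same boar for 65, 71 and 72, but it was boar 65 for 67 and boar 72 for 69. Symbols came from a table of Ensembl identifiers, and positions and sequences from RefSeq's annotation of Sscrofa11.1. Figures were drawn with matplotlib 3.10.9.

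Values in every library were given for members with the highest level per kb of a family, the 5 largest differences towards liver, all DEGs towards backfat, and members whose call changed under an alternative. Of the pathway genes, up to 4 DEGs a group were named, and further genes were added after their values were seen. Some genes first listed for the pathway are not reported here, and its counts do not include them. The values of pathway genes under each alternative, and shares and sums without liver 67, were added after the data were seen. Members and lists were chosen with earlier results of these data known.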

Additional observations from a re-analysis of the deposited data

Results flagged for a closer look

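For each member and tissue, the distance of the lowest or highest library from its closest neighbour was taken as a share of the range of the 5 libraries and compared with the critical value of Dixon's test (0.71). It was exceeded in 5 of 40 groups. The groups come from the same libraries and are not independent, so this number was not compared with chance. In 3 of them the library was liver 67: GSTK1 was at 185 CPM there and at 394 to 440 CPM in the other 4 liver libraries, MGST1 at 226 CPM against 717 to 796 CPM, and MGST3 at 25.9 CPM against 89.7 to 105 CPM. The remaining 2 rest on single libraries with few counts, and a group with 1 library above 0 and 4 at 0 always exceeds the critical value. GSTT4 had 5 counts in backfat 72 (0.0858 CPM) and 0 in the other 4 backfat libraries, and SULT6B1 had 1 count in backfat 65 (0.0113 CPM) and 0 in the other 4.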

How the results depend on the processing

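Without TMM factors (scaling by library size only), the median over all tested genes moved to a log2 fold change of 0.71. The member DEGs higher in liver then fell from 10 to 5. GSTZ1 (-1.77), GSTM3 (-1.64), GSTK1 (-1.52), MGST2 (-1.45) and SULT1C2 (-1.94) missed the fold threshold, and MGST3 became a DEG (2.61). Of the called members 62.5% were higher in liver, against 83.3% with TMM. Over all 16275 tested genes the DEGs went from 1819 to 1340 towards liver and from 1814 to 2874 towards backfat. MGST1 and SULT1C4, which passed no test, turned to 0.54 and 0.032, and 4 pathway genes in place of 0 were DEGs higher in backfat. At 10 or more counts in every library 12 members were tested. SULT1B1 and SULT2B1 were left out, so 0 DEGs higher in backfat and 1 member higher in backfat by FDR remained. GSTT4, SULT2A1 and SULT1E1 were left out as well, and 8 DEGs higher in liver remained, with GSTA4 among them. Of the 13026 genes tested with this filter 981 were DEGs towards liver and 871 towards backfat. Summed levels in TPM moved the log2 ratio of backfat over liver from -1.06 to -0.09 for all members, -3.54 to -2.59 for cytosolic GST, -2.22 to -1.23 for GSTK1, 0.80 to 1.72 for MGST and -3.65 to -2.63 for SULT. With the boar as a replicate block, the members held 10 DEGs towards liver and 3 towards backfat, with MGST3 (2.06) as the only changed call among the members. Leaving out 1 library gave 10 to 11 DEGs higher in liver and 2 to 3 in backfat. GSTA4 passed the fold threshold without backfat 71 or 72 or liver 67, 71 or 72, and MGST3 without backfat 67 or liver 65. GSTA4 was also a DEG with DESeq2 (-2.01), with its size factors in edgeR (-2.03), without the 13 mitochondrial genes (-2.03) and at 10 or more counts in every library (-2.0033), and MGST3 with limma-voom (2.07). The cause of these changes was not tested.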
